A study of Mus musculus with 6 samples.

Results

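The genes described here are 10 members of the bone morphogenetic protein (BMP) pathway, measured in hepatic stellate cells after obeticholic acid (OCA). They are the ligand genes Bmp2, Bmp4, Bmp5 and Bmp6, the receptor genes Bmpr1a and Bmpr2, the signal-carrying Smad9, the inhibitory Smad6 and the target genes Id1 and Id3. They were taken by symbol from a list drawn up with earlier results of these data known, so their share of calls is not that of a list chosen blind. All 10 were found among the 24940 genes of the count table. All 10 also passed the filter on low counts, among 12687 genes tested.

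The study measured polyadenylated RNA of primary stellate cells, pericytes of the liver that store vitamin A, from female mice of the C57BL/6JBomTac strain. In 3 libraries the cells had received 10 µM OCA, a synthetic derivative of chenodeoxycholic acid and agonist of the bile acid receptor FXR, and in 3 the vehicle DMSO, in both cases for 6 hours and starting 2 days after isolation. No genetic change is named in either group, and the age of the mice and the number of animals behind each library are not stated in the labels. The p-values therefore reflect only library-to-library spread, and this may be technical.

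BMP ligands are secreted dimers that bring together type I receptors, such as the product of Bmpr1a, and type II receptors, such as the product of Bmpr2. The type I receptor then phosphorylates SMAD1, SMAD5 and SMAD9 (also called SMAD8), which join SMAD4, enter the nucleus and switch on genes such as Id1 and Id3. SMAD6 blocks this step and is itself induced by BMP signals, so it serves as negative feedback. In the liver, BMP2 and BMP6 from endothelial cells control hepatocyte hepcidin, and stellate cells are a main source of BMP9 (gene Gdf2) and BMP10.

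Column totals lay between 12260882 and 16336240 counts. Levels are given in CPM, each gene's counts relative to its library's size, after TMM adjustment (trimmed mean of M values), as mean ± SD over n = 3 libraries unless stated. The test is the quasi-likelihood test of edgeR, each adjusted p is by Benjamini and Hochberg over all genes tested, the threshold is 0.05, and intervals are 95%. Stellate markers were abundant: summed CPM of 10 markers was 2093 to 2255 in DMSO and 1803 to 2198 in OCA. Of the 10, 6 did not overlap between groups, against 23.0% of all genes tested, and 6 had an unadjusted p under 0.05. Of the 10 markers 1 rose and 2 fell, against 2.18% and 3.03% of all genes tested. They are Lhx2, Reln and Rgs5, of which Lhx2 and Rgs5 are named after their values were seen. Reln, with 11632 exonic bases, lies in the longest eighth of tested genes, of which 12.7% were called lower. Reln set OCA B apart from its group, with 489 CPM against 261 and 225 in OCA A and C and 502 to 632 in DMSO, and the part of this in the results was not tested. Endothelial markers, which bear on Bmp2 and Bmp6, were near the detection limit. Of 8 endothelial markers 7 did not pass the filter, with at most 7.5 counts in any library, and the list summed to 4.01 to 5.94 CPM in DMSO and 2.94 to 6.53 CPM in OCA, mostly Tek. The hepatocyte, macrophage and cholangiocyte lists each summed to at most 10.7 CPM in any library. The 5 myofibroblast markers, by contrast, were abundant, with summed CPM of 2015 to 2355 in DMSO and 1899 to 2272 in OCA. Of these 5, edgeR, DESeq2 and limma-voom called 0 (2 at an unadjusted p under 0.05 by edgeR). In bulk libraries such as these, fewer cells of a type and less RNA per cell cannot be told apart.

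The ligand genes Bmp2 and Bmp4 and the inhibitory Smad6 rose under OCA, and Id1 and Id3 were not called in either direction. Among the called members, Bmp2 was at 1.69-fold, Smad6 at 1.41-fold and Bmp4 at 1.38-fold, while Bmpr2 was lower at 0.841-fold. Smad9, at 0.721-fold, was not called. In all, 3 of the 10 members were higher and 1 lower, against 2.18% and 3.03% of all genes tested, or 5.20% in either direction. The 2 groups of libraries did not overlap for 5 members, against 23.0% of all genes tested. The median log2 fold change of the 10 was 0.02, against 0.00 for all genes tested. Without OCA B and DMSO A together, the 3 higher calls were kept and Bmpr2 was not called. That fit leaves out the lowest OCA and the highest DMSO library of Bmp4. Bmp2 and Smad6 kept their calls under all 17 alternatives tried. The Bmp4 call was lost in 8 of the 17, DESeq2 and limma-voom among them, and the Bmpr2 call in 6.

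**Figure D1:**
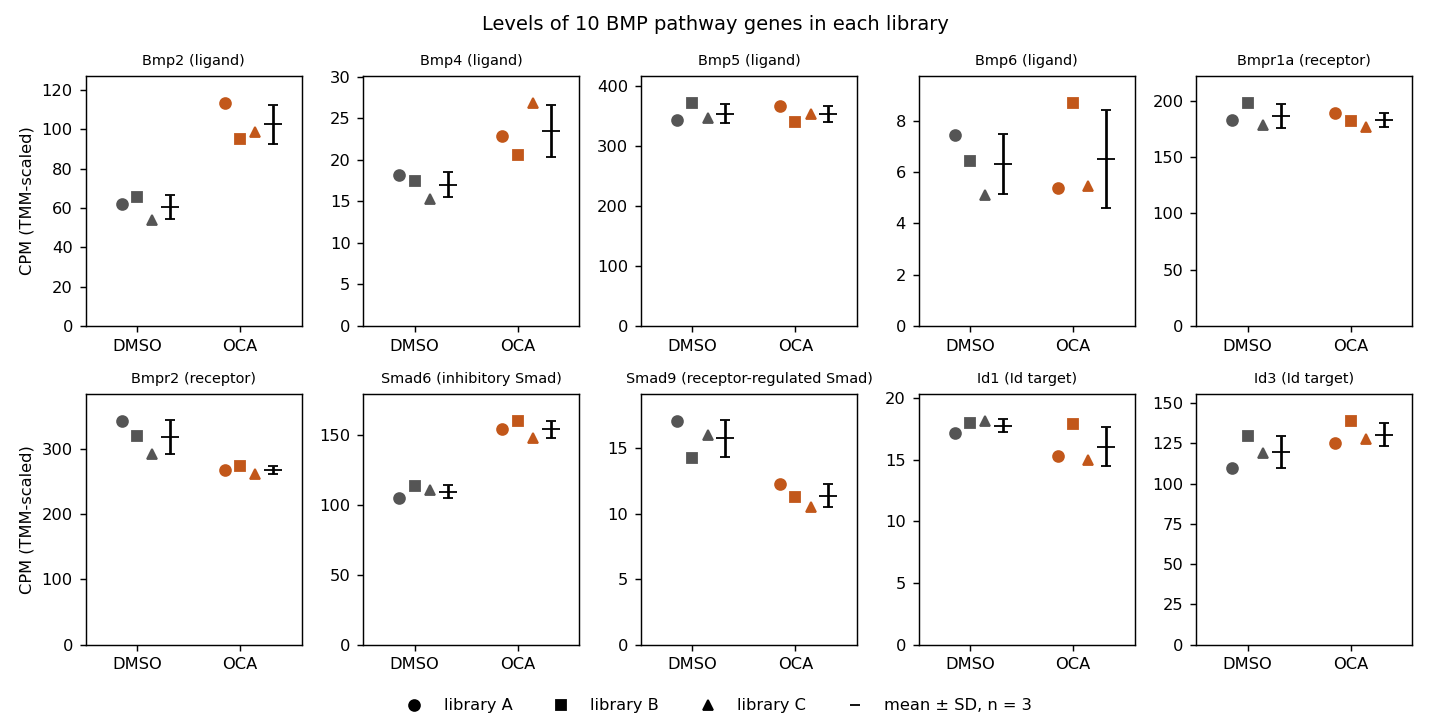
CPM of the 10 genes in each library, on axes that start at 0, with circles, squares and triangles for libraries A, B and C and the mean ± SD (n = 3) beside each group. Bmp2, Bmp4 and Smad6 lie higher in all 3 OCA libraries, Bmpr2 and Smad9 lie lower, and the other 5 genes overlap between groups.

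Bmp2 encodes a ligand with strong bone- and iron-regulating activity (NM_007553, mm10 chromosome 2, 133552159 to 133562896, plus strand). It had 61.98, 65.61 and 54.00 CPM in DMSO A, B and C, and 114, 95.2 and 98.5 CPM in OCA A, B and C. The lowest OCA library lay well above the highest DMSO library. The means were 60.5 ± 5.94 and 102 ± 9.75 CPM, a log2 fold change of 0.76 (SE 0.08, interval 0.58 to 0.94, adjusted p = 7.76e-06). This was the 155th highest log2 fold change of the 12687 genes tested. The call was kept under all 17 alternatives tried, with values between 0.68 and 0.83.

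Bmp4 encodes the closest relative of BMP2 (NM_007554, chromosome 14, 46383525 to 46390669, minus strand) and had a lower level per length. Its values were 18.2, 17.5 and 15.3 CPM in DMSO and 22.9, 20.6 and 26.9 CPM in OCA. The groups did not overlap, but OCA B lay close to DMSO A. The log2 fold change was 0.47 (SE 0.13, interval 0.19 to 0.74, adjusted p = 0.0448). That call rests on a small margin: it was lost without any 1 of the DMSO libraries and without OCA A or OCA C, where the adjusted p was 0.0853 to 0.234, and also with DESeq2, limma-voom and upper-quartile scaling. A noncoding gene on the other strand, Gm15217, shares 89 exonic bases with Bmp4 and had 43 counts over all 6 libraries, against 745.5 for Bmp4 in DMSO and 917 in OCA. Without strand information such reads cannot be assigned to one of the genes.

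Bmp5 (NM_007555, chromosome 9, 75775365 to 75900316, plus strand), a ligand of the same subgroup as BMP6 and BMP7, had the highest level per length of the 4 ligand genes. It had 343, 372 and 346 CPM in DMSO and 366, 340 and 353 CPM in OCA, with the groups fully interleaved. The log2 fold change was -0.00 with an interval from -0.15 to 0.14 (adjusted p = 0.989), which is 0.904 to 1.10 as a fold. Bmp6 (NM_007556, chromosome 13, 38345716 to 38500314, plus strand) had, with Smad9, the lowest levels per length among the 10. It had 7.42, 6.44 and 5.11 CPM in DMSO and 5.37, 8.70 and 5.46 CPM in OCA, with OCA B the highest and no order between the groups. Its log2 fold change of 0.05 had a wide interval, from -0.46 to 0.57 (adjusted p = 0.935). The Bmp6 counts are uncertain, because 224 exonic bases are shared with Txndc5 on the other strand, which had 24469 counts over the 6 libraries.

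On a per-length scale, Bmp2 and Bmp4 made up larger shares of the transcripts of the 4 ligand genes in OCA, and Bmp5 a smaller one. Dividing CPM by exonic length in kilobases, Bmp5 made up 77.2% ± 1.55 of the summed level of the 4 ligand genes in DMSO and 68.6% ± 0.511 in OCA. Bmp2 made up 14.1% ± 0.823 and 21.3% ± 1.16, Bmp4 6.90% ± 0.515 and 8.48% ± 1.06, and Bmp6 1.76% ± 0.308 and 1.63% ± 0.550. The shares of Bmp2, Bmp4 and Bmp5 did not overlap between groups, and those of Bmp6 did. The summed level of the 4 was 120.0 ± 5.92 CPM per kilobase in DMSO and 135 ± 6.07 in OCA. These shares are descriptions without a test.

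Of 10 other ligand genes of the family, 4 were tested, and 6 had at most 13 counts in any library. Gdf2, which encodes BMP9, rose: it had 194, 215 and 184 CPM in DMSO and 324, 266 and 272 CPM in OCA, all above DMSO. Its log2 fold change was 0.54 (SE 0.08, adjusted p = 0.000272), and it was called under all 17 alternatives. Gdf6, which encodes a growth factor of joint and skeletal development, fell by 0.37 on the log2 scale, with 124 ± 8.91 CPM in DMSO and 96.1 ± 8.73 in OCA (adjusted p = 0.00715), a call lost without OCA C. Bmp10 had 210 ± 12.9 and 240 ± 17.9 CPM (adjusted p = 0.140) and Gdf10 80.3 ± 7.14 and 88.3 ± 9.88 CPM (adjusted p = 0.396), and neither passed the test. Over these 8 ligand genes together, per length, Bmp10 held the largest share, 39.5% ± 0.166 in DMSO and 39.2% ± 3.42 in OCA. Gdf2 went from 16.5% ± 0.310 to 20.8% ± 1.96 and Bmp2 from 4.23% ± 0.221 to 6.20% ± 0.495, while Bmp5 went from 23.1% ± 0.604 to 19.9% ± 0.438 and Gdf6 from 8.76% ± 0.346 to 5.88% ± 0.510, all 4 without overlap between groups. The share of Bmp4 overlapped here, at 2.06% ± 0.158 and 2.47% ± 0.324.

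**Figure D2:**
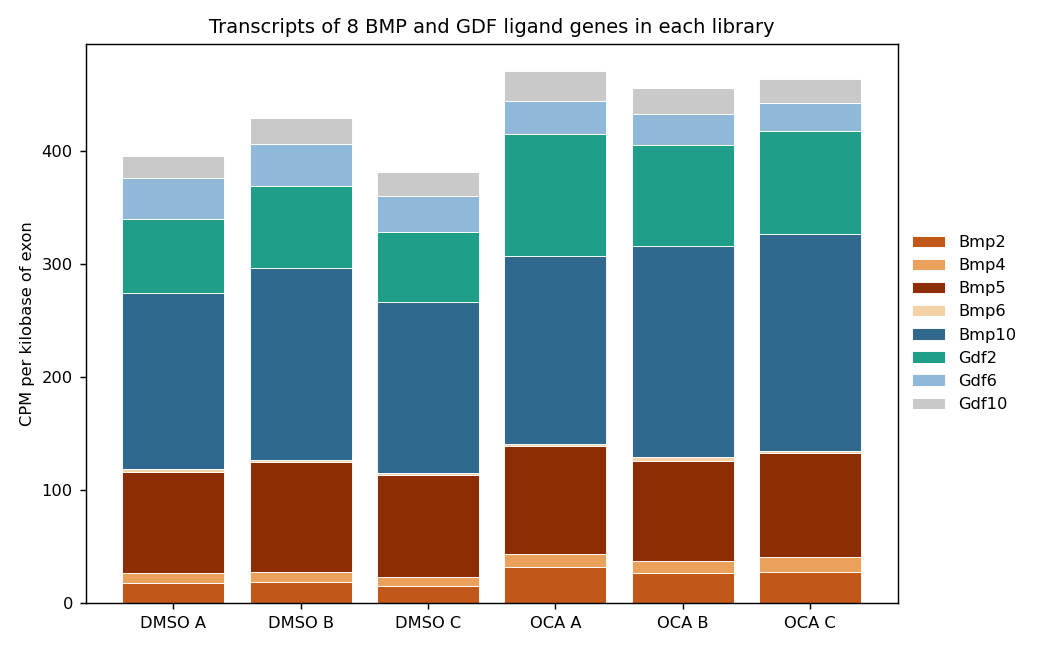
Level of 8 BMP and GDF ligand genes in each library as stacked bars, in CPM per kilobase of exon. Bmp10, Bmp5 and Gdf2 make up most of each bar, and the summed level is 456 to 471 in the OCA libraries and 381 to 429 in the DMSO libraries.

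Of both receptor genes, Bmpr2 fell slightly and Bmpr1a did not pass the test. Bmpr1a, the type I receptor gene (NM_009758, chromosome 14, 34411068 to 34502546, minus strand), had 183, 198 and 178 CPM in DMSO and 190, 182 and 177 CPM in OCA. The groups overlapped, and the log2 fold change of -0.03 had an interval from -0.16 to 0.11 (adjusted p = 0.849). Bmpr2, the type II receptor gene (NM_007561, chromosome 1, 59764279 to 59878081, plus strand), had 343, 321 and 292 CPM in DMSO and 268, 274 and 262 CPM in OCA. Every OCA library was lower than every DMSO library, and the gene passed the test with a log2 fold change of -0.25 (SE 0.07, interval -0.40 to -0.10, adjusted p = 0.0453).

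The Bmpr2 call depended on how transcript length was handled. With 11072 exonic bases it is the longest of the 10 transcripts, and long transcripts had lower fold changes in general: the median log2 fold change of the longest eighth of tested genes was -0.14, against 0.10 in the shortest, and 12.7% of that longest eighth were called lower. With offsets that remove a length trend, fitted library by library, Bmpr2 had a log2 fold change of -0.05 (adjusted p = 0.777), and over all genes 380 were called higher and 227 lower, against 276 and 384 without the offsets. The call was also lost when one of OCA A, OCA C, DMSO A and DMSO B was left out. Bmp2, with 3561 bases, and Smad6, with 2965, lie in the middle of the length range and had log2 fold changes of 0.79 and 0.50 with the same offsets.

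**Figure D3:**
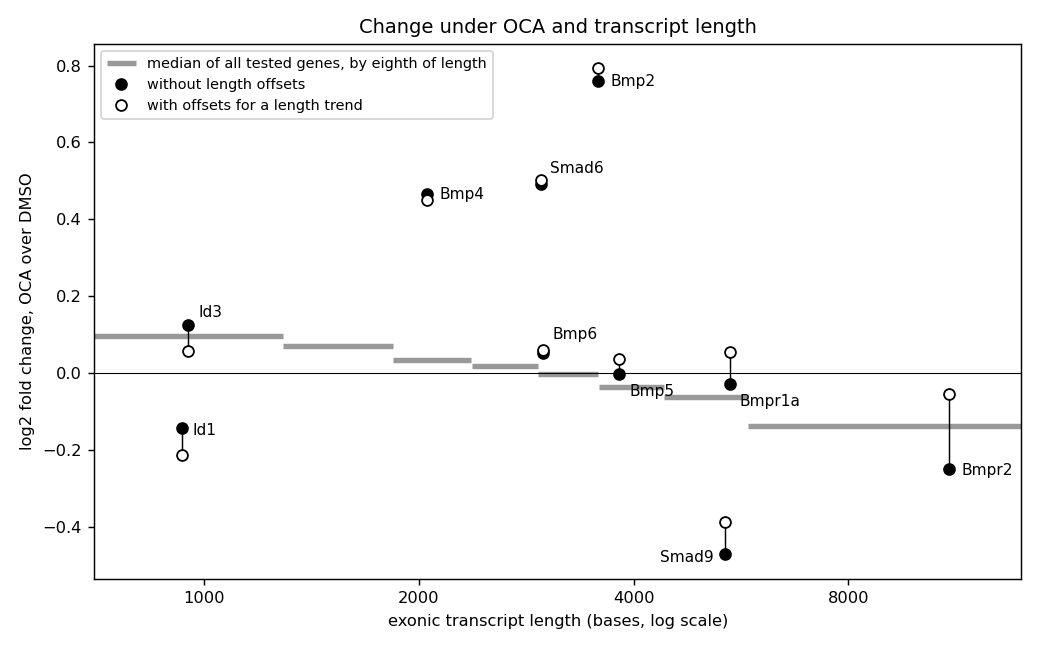
Log2 fold change of the 10 genes against exonic transcript length on a log axis, without (filled) and with (open) offsets for a length trend, and the median of all tested genes in each eighth of length as grey bars, of which the first and last run past the axis. Bmpr2 moves from -0.25 to -0.05, whereas Bmp2 moves from 0.76 to 0.79 and Smad6 from 0.49 to 0.50.

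Among 9 other receptor and co-receptor genes, edgeR called 0 of the 7 tested in either direction, 0 had an unadjusted p under 0.05, and DESeq2 and limma-voom also called 0. Those with the highest mean CPM were Eng, which encodes the co-receptor endoglin, with 583 ± 63.8 and 585 ± 42.2 CPM (adjusted p = 0.984), and the type II receptor gene Acvr2a with 136 ± 4.22 and 145 ± 12.7 CPM (adjusted p = 0.496). The endothelial type I receptor gene Acvrl1, through which BMP9 and BMP10 act in vessels, had 1.87 ± 1.01 and 1.584 ± 0.2999 CPM (adjusted p = 0.814). It is named after its values were seen.

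Smad6, the inhibitory Smad (NM_008542, chromosome 9, 63953076 to 64022059, minus strand), had the tightest groups among the members that rose. It had 104.5, 113.0 and 110.3 CPM in DMSO and 154, 160 and 148 CPM in OCA, with a wide gap between the groups. The log2 fold change was 0.49 (SE 0.065, interval 0.36 to 0.63, adjusted p = 7.01e-05), and the call was kept under all 17 alternatives, with values between 0.43 and 0.52. Smad9, which encodes a BMP signal carrier beside SMAD1 and SMAD5 (NM_019483, chromosome 3, 54755582 to 54801269, plus strand), lay in the opposite direction. It had 17.08, 14.26 and 16.01 CPM in DMSO and 12.27, 11.31 and 10.52 CPM in OCA. The groups did not overlap, but the gene did not pass the test. Its log2 fold change was -0.47 (SE 0.15, interval -0.79 to -0.16), with an adjusted p of 0.0769 and an unadjusted p of 0.00531. With length-trend offsets it was -0.39 (adjusted p = 0.155).

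Of 4 other Smad genes edgeR called 0, DESeq2 and limma-voom also 0, and 2 had an unadjusted p under 0.05. All 4 log2 fold changes were below 0. So were the medians of the eighths of transcript length that hold these genes (-0.0022 to -0.14). With length-trend offsets Smad1 was at -0.23 (adjusted p = 0.0525) and Smad7 at -0.17 (adjusted p = 0.211). Smad1 was called lower in 4 of 17 alternatives, the replicate block among them, and Smad7 in 3; both were called without OCA B and with no filter on low counts. Smad7, the other inhibitory Smad and one shared with TGF-beta signalling, had 140.5 ± 7.72 CPM in DMSO and 120 ± 15.6 in OCA (adjusted p = 0.111), and its groups overlapped. Per length, Smad6 made up 53.8% ± 2.24 of the summed level of Smad6 and Smad7 in DMSO and 65.8% ± 2.14 in OCA, with no overlap between the groups. Smad4, the common partner, had 141.5 ± 4.10 and 137 ± 6.88 CPM (adjusted p = 0.747). Of the 3 BMP signal carriers, Smad9 was the smallest part, with 5.56% ± 0.544 of the summed level of Smad1, Smad5 and Smad9 per length in DMSO and 4.63% ± 0.280 in OCA. That sum was 53.0 ± 3.09 CPM per kilobase in DMSO and 45.8 ± 3.44 in OCA, without overlap between the groups, and was not tested. Smad1 carried most of it, with 56.5% and 55.1%. The Smad1 groups did not overlap in CPM, but the gene did not pass the test (adjusted p = 0.0724).

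The sequence just upstream of the start site is printed for Smad6 and Bmp4, which rose, and for the target gene Id3, which was not called. Each stretch is the 250 bases before the start site of the transcript in the count table, written 5′ to 3′ on the gene's strand, from RefSeq build GRCm38.p6: Smad6 at chr9:64022060-64022309 (minus strand), Bmp4 at chr14:46390670-46390919 (minus strand) and Id3 at chr4:136143572-136143821 (plus strand). Capitals mark GGAGCC on either strand, a variant of the GC-rich Smad-binding element GGCGCC.
Smad6: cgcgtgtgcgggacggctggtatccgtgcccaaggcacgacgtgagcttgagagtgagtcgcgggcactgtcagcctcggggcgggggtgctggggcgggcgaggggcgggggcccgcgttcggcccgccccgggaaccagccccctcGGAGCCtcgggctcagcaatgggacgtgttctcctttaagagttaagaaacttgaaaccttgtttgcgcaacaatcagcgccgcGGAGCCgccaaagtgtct
Bmp4: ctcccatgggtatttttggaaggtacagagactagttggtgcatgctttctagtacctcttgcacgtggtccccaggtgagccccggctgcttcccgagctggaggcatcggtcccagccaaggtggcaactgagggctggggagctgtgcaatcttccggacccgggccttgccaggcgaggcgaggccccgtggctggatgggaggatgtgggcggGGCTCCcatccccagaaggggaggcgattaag
Id3: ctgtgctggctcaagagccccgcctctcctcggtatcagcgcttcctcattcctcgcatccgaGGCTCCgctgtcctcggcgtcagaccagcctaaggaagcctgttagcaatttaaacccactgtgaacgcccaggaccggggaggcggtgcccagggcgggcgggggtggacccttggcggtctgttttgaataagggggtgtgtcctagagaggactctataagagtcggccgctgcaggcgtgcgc

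The Smad6 stretch held GGAGCC at 2 places, whose first bases lie at -102 and -18 from the start site, and Bmp4 and Id3 held 1 each, on the other strand, at -32 and -187. Smad9 also held 1, at -6. Of all 32851 promoters in the RefSeq table, 26.0% held GGAGCC in the same window, so the match itself is common. GGCGCC, found in 9.59% of all promoters, was in the windows of Bmpr1a, Bmpr2 and Smad9. These windows were 78.8%, 64.0% and 73.2% G or C, and those of Smad6, Bmp4 and Id3 66.8%, 63.2% and 62.8%. The median of all promoters was 52.4%, and the shares of promoters with a match do not allow for this difference. The FXR inverted repeat AGGTCANTGACCT (0.00609% of promoters), its half-site AGGTCA (in 4607 promoters), the Smad palindrome GTCTAGAC (0.167%) and the E-box CAGCTG (in 4271) were in none of the 8 members' windows searched. GTGGGAA, bound by the Notch effector RBPJ (5.42%), was in those of Bmpr2 and Smad9, and CGTGGGAA, which contains it (0.636%), in none. All motifs were searched on both strands as exact letters, and a match or its absence in this window says nothing about binding by a factor. The table held 8 of the 10 genes. Bmp2 and Id1 are the others.

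Id1 and Id3 encode helix-loop-helix proteins without a DNA-binding region, which hold back differentiation factors and are among the most direct readouts of BMP-activated Smads. Id1 (NM_010495, chromosome 2, 152736251 to 152737410, plus strand) had 17.2, 18.0 and 18.1 CPM in DMSO and 15.31, 17.90 and 14.96 CPM in OCA. OCA B lay inside the narrow DMSO range, and the other OCA libraries below it. The log2 fold change was -0.14 (SE 0.13, interval -0.42 to 0.14), with an unadjusted p of 0.298 and an adjusted p of 0.604 by edgeR and 0.723 by DESeq2. Id3 (NM_008321, chromosome 4, 136143822 to 136145392, plus strand) had 109.8, 129.9 and 119.2 CPM in DMSO and 125.1, 138.9 and 127.5 CPM in OCA. The groups overlapped through DMSO B, and the log2 fold change was 0.13 (SE 0.07, interval -0.03 to 0.28), with an unadjusted p of 0.0977 and an adjusted p of 0.363 by edgeR and 0.484 by DESeq2. Id2, a close relative of both, had 58.6 ± 5.16 and 56.1 ± 3.06 CPM (adjusted p = 0.739). Per length, Id3 made up 65.7% ± 0.438 of the summed level of Id1 to Id4 in DMSO and 69.0% ± 0.646 in OCA. Id1 made up 9.96% ± 0.562 and 8.64% ± 0.366, and Id2 24.1% ± 0.270 and 22.2% ± 0.673. The shares of Id1, Id2 and Id3 did not overlap between groups and were not tested. The sum itself overlapped between groups (192 ± 14.8 and 199.5 ± 11.5 CPM per kilobase).

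The intervals of the log2 fold changes set the members that rose apart from the Id genes in most but not all pairings. The interval of Bmp2 (0.58 to 0.94) and that of Smad6 (0.36 to 0.63) lie wholly above those of Id1 (up to 0.14) and Id3 (up to 0.28). The interval of Bmp4 (from 0.19) lies above that of Id1 and overlaps that of Id3. No test of the difference between genes was run.

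Ratios of counts within a library, which do not depend on library scaling, restate this comparison library by library. They are not free of the length trend, because Id1 (930 bases) and Id3 (948) lie in the shortest eighth of tested genes. With length-trend offsets Id1 was at -0.21 and Id3 at 0.06, and Bmp2, Smad6 and Bmp4 were at 0.79, 0.50 and 0.45. The ratios were formed only for members that rose over Id genes that were not called. Their separation therefore follows largely from the values above and is no further support. The log2 ratio of Smad6 to Id1 was 2.61, 2.65 and 2.61 in DMSO and 3.33, 3.16 and 3.30 in OCA, so the groups were 0.50 apart at their nearest libraries and 0.64 apart in the mean. The log2 ratio of Smad6 to Id3 went from -0.13 ± 0.07 to 0.24 ± 0.05, and that of Bmp2 to Id1 from 1.76 ± 0.16 to 2.67 ± 0.24. That of Bmp2 to Id3 went from -0.98 ± 0.16 to -0.35 ± 0.20, again without overlap. Bmp4 to Id1 did not overlap (-0.07 ± 0.17 and 0.54 ± 0.32), and Bmp4 to Id3 did (-2.82 ± 0.20 and -2.48 ± 0.25).

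**Figure D4:**
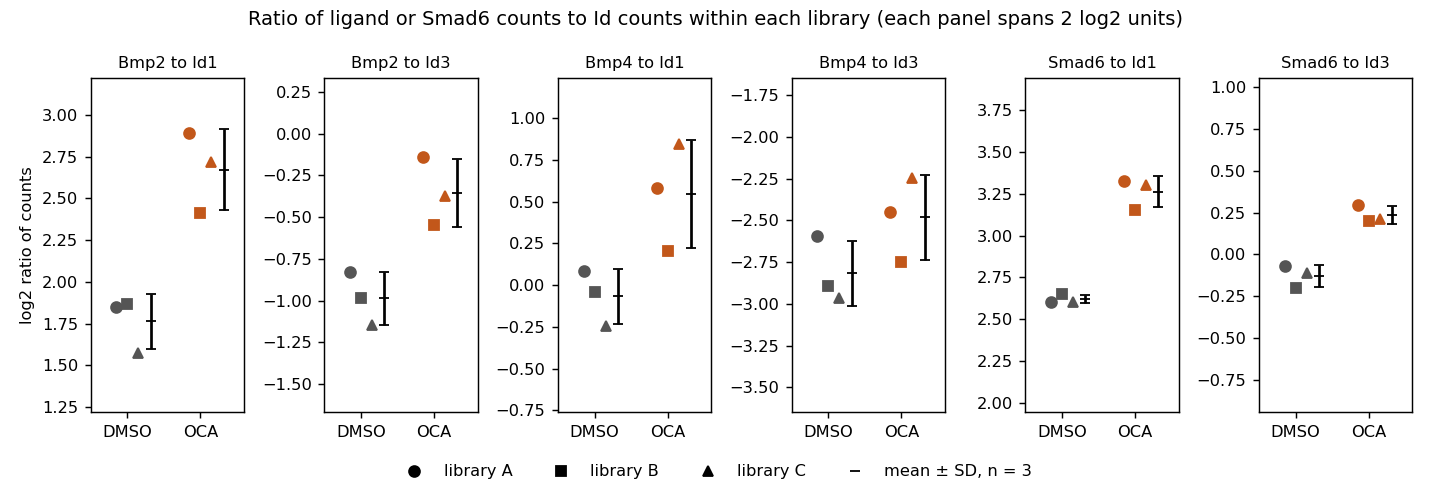
Log2 ratios of counts of Bmp2, Bmp4 and Smad6 to those of Id1 and Id3 within each library, with the mean ± SD (n = 3) beside each group. The panels span ranges of equal width, each centred on its own values. The groups are separate in 5 of the 6 panels, and OCA B is the lowest OCA library in each of them.

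Of 11 other target genes of the pathway listed, Id2 among them, 8 were tested, 1 rose and 7 were not called. By edgeR 3 of the 8 had an unadjusted p under 0.05. Hey1, a transcriptional repressor induced by both Notch and BMP signals, rose: it had 4.71, 3.68 and 2.67 CPM in DMSO and 21.9, 15.3 and 16.6 CPM in OCA. The groups were far apart, and the change of 2.27 on the log2 scale was called under all 17 alternatives (SE 0.22, adjusted p = 1.08e-06). Its relative Hey2, named after its values were seen, had 2.5 ± 0.29 CPM in DMSO and 4.2 ± 0.22 in OCA. Its groups did not overlap, but it did not pass the test (log2 fold change 0.73, adjusted p = 0.174). Atoh8, a BMP-responsive transcription factor gene, had 82.8 ± 5.96 and 77.7 ± 8.09 CPM (adjusted p = 0.602), and Tbx20, a T-box factor gene of heart development, 256 ± 19.0 and 216 ± 24.7 CPM (adjusted p = 0.0861).

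Regulators of the pathway outside the cell and inside it went both ways. Of 16 antagonists, 9 were tested, 1 rose and 1 fell. Bambi, a decoy receptor gene without kinase activity, fell: it had 65.6, 62.2 and 64.6 CPM in DMSO and 50.2, 47.7 and 46.95 CPM in OCA, without overlap (log2 fold change -0.41, adjusted p = 0.00279). Chrd, which encodes the BMP-binding chordin, rose from 38 counts over the DMSO libraries to 97 over the OCA libraries (adjusted p = 0.0487), a call lost in 12 of 17 alternatives, among them DESeq2 and each fit without 1 library. Fstl1 (740 ± 62.7 and 712 ± 41.4 CPM, adjusted p = 0.755) and Bmper (165 ± 3.15 and 171 ± 3.24 CPM, adjusted p = 0.730) did not pass. Of 7 intracellular regulators 1 rose and 1 fell: Ski rose (387 ± 16.3 to 465 ± 23.8 CPM, adjusted p = 0.0344) and its relative Skil fell (128 ± 7.81 to 89.2 ± 13.8 CPM, adjusted p = 0.00117), both repressors of Smad-driven transcription. The Ski call was lost without any 1 of the OCA libraries and without DMSO A or DMSO C. Fkbp1a (adjusted p = 0.502), whose product holds type I receptors inactive, and the ubiquitin ligase gene Smurf2 (adjusted p = 0.405) did not pass. Over the whole list of 57 other pathway genes, 39 were tested. By edgeR 4 were higher and 3 lower, against 2.18% and 3.03% of all genes tested. DESeq2 called 6 and limma-voom 6. The groups did not overlap for 11 of the 39, against 23.0% of all genes tested. The median log2 fold change of the list was -0.06.

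**Figure D5:**
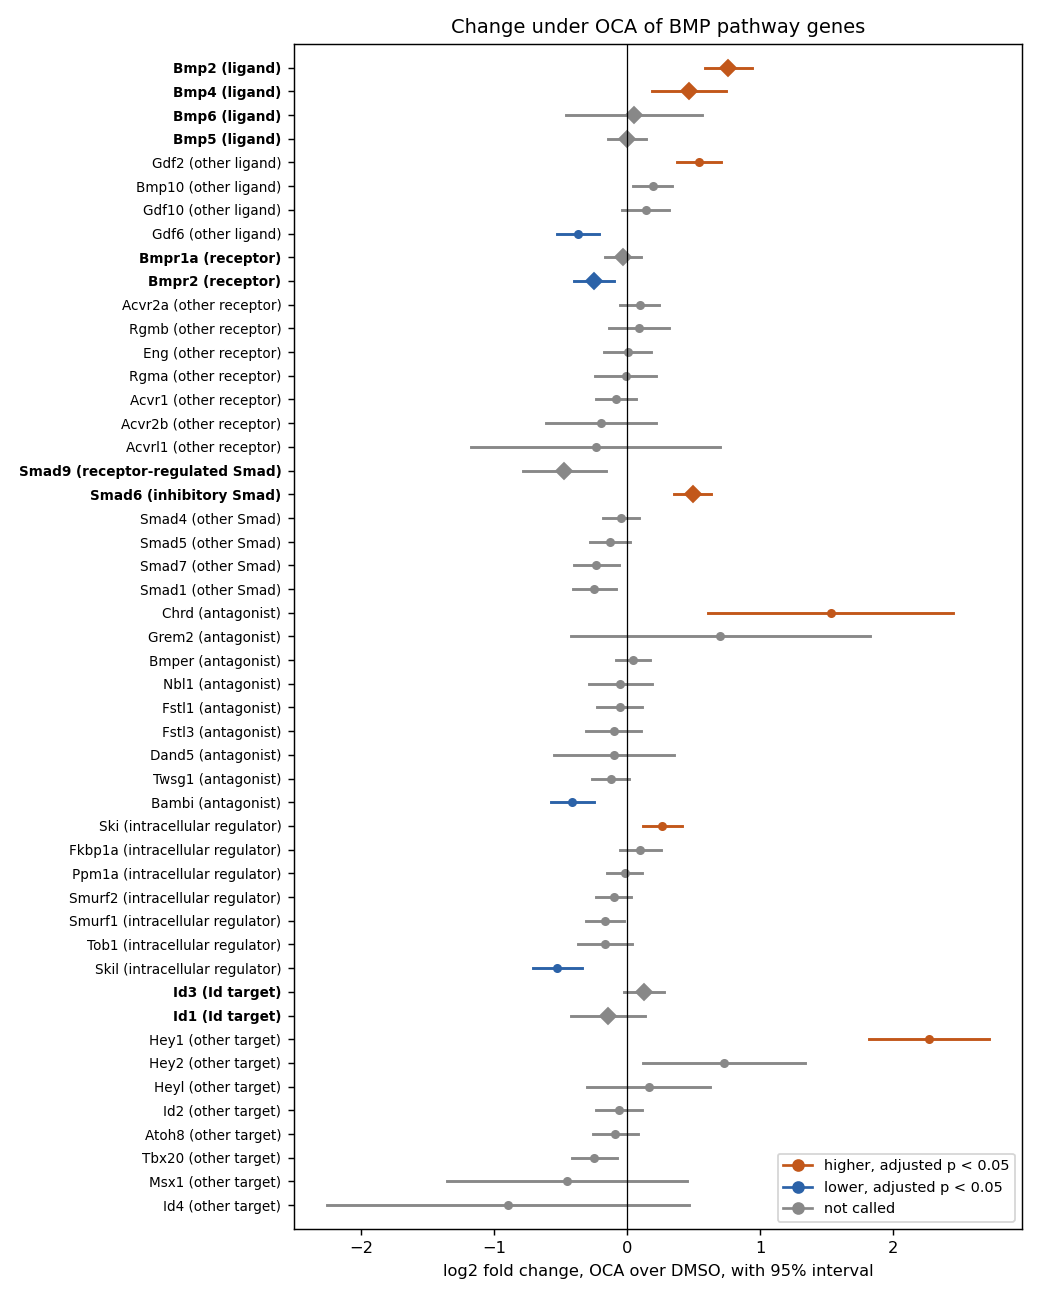
Log2 fold change (OCA over DMSO) with its 95% interval for the 10 genes (bold names, diamonds) and 39 other tested BMP pathway genes (circles), ordered by role. Orange and blue mark genes called higher and lower at adjusted p under 0.05; Hey1 has the largest change (2.27), and both Id members have intervals that include 0.

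Per length, the order of the 10 genes over the 6 libraries ran from Id3 (132 CPM per kilobase) and Bmp5 (92.5) through Smad6 (44.3), Bmpr1a (33.8), Bmpr2 (26.5), Bmp2 (22.9), Id1 (18.2) and Bmp4 (9.86) to Smad9 (2.53) and Bmp6 (2.15). The ranges of 4 pairs of neighbours overlapped, namely Smad6 with Bmpr1a, Bmpr2 with Bmp2, Bmp2 with Id1, and Smad9 with Bmp6. Bmp2 changed places with treatment: it lay below Id1 and Bmpr2 in all 3 DMSO libraries (17.0 ± 1.67 CPM per kilobase, against 19.1 ± 0.551 and 28.8 ± 2.31) and above both in all 3 OCA libraries (28.8 ± 2.74, against 17.3 ± 1.73 and 24.2 ± 0.515). Libraries of a group differed least for Bmpr2 in OCA, with a coefficient of variation of 2.13%, and most for Bmp6 in OCA, with 29.2%.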

How the data were processed

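Polyadenylated RNA of 6 stellate cell samples was sequenced from NEBNext Ultra libraries, per the labels' protocols. STAR, HOMER and build mm10 are named in the submitters' processing notes, without versions, settings or strand handling. The authors deposited 1 table of exon counts, in steps of 0.5. These expected counts were deposited without adjustment, as the name of the authors' table states, and were rounded before count tests. Exonic lengths and coordinates are those deposited in the same table. 3 counts correspond to 0.184 to 0.245 CPM per library.

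Groups came from the titles. edgeR 4.0.16 in R 4.3.3 (filterByExpr, TMM, glmQLFit, glmQLFTest, two-sided, no block) tested 12687 genes, and the fit was tested on simulated data. The standard error is the size of the log2 fold change over the square root of F. Replicates deviated from each other beyond counting error (chi-square per degree of freedom 4.4 to 8.01). The same-lettered libraries did not deviate together (correlations 0.000511, -0.0433 and 0.0535). Alternatives were DESeq2 1.42.0, limma-voom (limma 3.58.1), RLE and upper-quartile scaling, no filter or 1 CPM in 3 libraries, a replicate block, robust dispersion, counts not rounded, length-trend offsets, and libraries left out. Exon overlaps came from GENCODE M21. The members and gene lists were chosen with earlier results of these data known. Outside the members, the text names each called gene of the pathway list and up to 2 uncalled genes of a role with the highest mean CPM. Smad1, Smad5, Id2, Acvrl1 and Hey2 were added after their values were seen.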

Additional observations from a re-analysis of the deposited data

How the results depend on the processing

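Bmp2, Smad6, Id1 and Id3 kept their direction and their side of the threshold under all 17 alternatives, Id1 between -0.25 and -0.10 and Id3 between 0.02 and 0.19. Without OCA B and DMSO A together, Id1 was at -0.25 and Id3 at 0.02. Bmp4 was no longer called with DESeq2 (0.46), limma-voom (0.46) or upper-quartile scaling (0.45), and its log2 fold change ran from 0.36 to 0.55 when 1 library was left out. Bmpr2 was no longer called with length-trend offsets (-0.0535) or without OCA B and DMSO A together (-0.21), and ran from -0.31 to -0.19 when 1 library was left out. Smad9 passed only with no filter on low counts (-0.48, adjusted p = 0.0465). Values near 0 changed sign: Bmp5 to 0.0365 with length-trend offsets and 0.0029 without OCA B and DMSO A (-0.0305 to 0.0348 with 1 library left out), Bmp6 to -0.0723 without OCA B and DMSO A (-0.21 to 0.19), and Bmpr1a to 0.0557 with length-trend offsets (-0.0601 to 0.0164). The cause was not tested.

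Of the other pathway genes, 2 were higher without OCA B and DMSO A (2 to 3 with 1 library left out), and 6 were lower with no filter, 6 without OCA B and DMSO A and 5 with the replicate block (2 to 6 with 1 library left out). Over all genes, the 276 higher ranged from 161 to 363 with 1 library left out. The 384 lower became 703 with no filter, 227 with length-trend offsets (380 higher), 605 without OCA B and DMSO A, and 104 to 758 with 1 library left out. The replicate block gave 306 higher and 508 lower genes and changed no member's call. Plain library totals moved the median per-length level of the members in DMSO from 23.9 to 24.0 CPM per kilobase. Small changes cannot be measured for Bmp6, whose interval ran from -0.46 to 0.57, and the cause of its spread was not tested. Nor can they be measured for the pathway genes under the filter, which had at most 19 counts in any library.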
